A study of Rattus norvegicus and Mus musculus and Macaca mulatta with 84 samples.

Results

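The liver transcriptome of UCD-T2DM rats that had been diabetic for 3 months was compared with that of prediabetic rats of the same strain. The UCD-T2DM rat is a model of type 2 diabetes in which obese animals become diabetic with age. Members were taken by the labelled duration of the diabetic phenotype: 5 liver RNA libraries at 3 months and 5 prediabetic liver RNA libraries, each from a separately numbered animal, which makes 10 of the 84 samples in the series. The series sets several diabetes models side by side by small RNA and RNA sequencing and adds a miR-29 perturbation with locked nucleic acids. The same table holds 4 libraries from rats diabetic for 2 weeks and 6 from rats diabetic for 6 months, which are used here as a reference. All these rats are untreated as far as the labels say, and the labels give no age, sex, feeding state or time of collection, so duration of diabetes and age cannot be told apart.

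The liver takes up glucose and stores it as glycogen when insulin is high, turns the excess into fatty acids, and releases glucose and ketone bodies when insulin is low. Insulin raises fatty acid synthesis largely through the transcription factor SREBP-1c, the product of Srebf1, while the related SREBP-2, the product of Srebf2, switches on cholesterol synthesis when sterols in the cell run low. Hepatocytes also secrete most plasma proteins, among them transthyretin, the apolipoproteins, the complement factors and the growth-hormone-dependent partners of IGF-1.

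The summed normalised counts of the libraries lay between 37624000 and 44740000 (39921000 ± 1979400 at 3 months and 41676000 ± 1921500 in prediabetic rats, SD, n = 5 each, two-sided exact permutation test p = 0.198). The values were already scaled between libraries, so like sums do not show like numbers of reads. Hepatocyte markers dominated every library, Alb alone making up 7.89 ± 2.92% of the signal at 3 months and 8.82 ± 1.02% in prediabetic rats (exact permutation p = 0.532), and the Y-linked Eif2s3y was detected in all 10, from 982 to 1431 normalised counts. The share of mitochondrially encoded transcripts was higher at 3 months, at 10.2 ± 1.57% against 7.95 ± 0.444% (exact permutation p = 0.0159; 0.00794 is the smallest p this design allows). Prediabetic library 2 stood apart from its group on principal components 2 and 3 (-58.1 and 42.2). In the 3-month group library 4 was apart on component 2 (-14.7) and library 1 on component 3 (31.4). Component 1 held 30.8% of the variance. On it 3-month library 5 was at -2.19, between its group mates (14.5 to 35.7) and the prediabetic libraries (-48.5 to -26.0). The unnamed locus AABR07015057.1 separated prediabetic library 2 from the other 9 libraries, at 28050 normalised counts against 59135 to 75737.

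At 3 months 2248 of the 13640 genes tested passed an adjusted p of 0.05 (limma on log2 values, Benjamini-Hochberg adjustment), which is 16.5% of the genes tested. Of these, 1058 (7.76%) rose and 1190 (8.72%) fell. These 2 shares are the background for the list counts below. Most changes were modest: 1597 of the called genes differed by less than 1 on the log2 scale, and the median absolute log2 difference of the called genes was 0.69. Large changes were more often upward, with 439 genes called at a log2 difference of at least 1 and 212 at -1 or below. For 1359 of the called genes the 2 groups did not overlap at all, 606 with every 3-month library above every prediabetic one and 753 with every 3-month library below. Over all genes tested, called or not, the corresponding non-overlapping shares were 5.42% above and 6.6% below. The median log2 difference over all genes tested was 0.02. Without 3-month library 1 the count of called genes was 1449, and without prediabetic libraries 4 and 5 together, whose animals are numbered apart from the others, it was 1014. Without 3-month library 1 and prediabetic library 2 together, a pair chosen after seeing the data, it was 1277. These 2 paired omissions are given beside the lists whose leading count they change by more than 1.5 times.

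**Figure D1:**
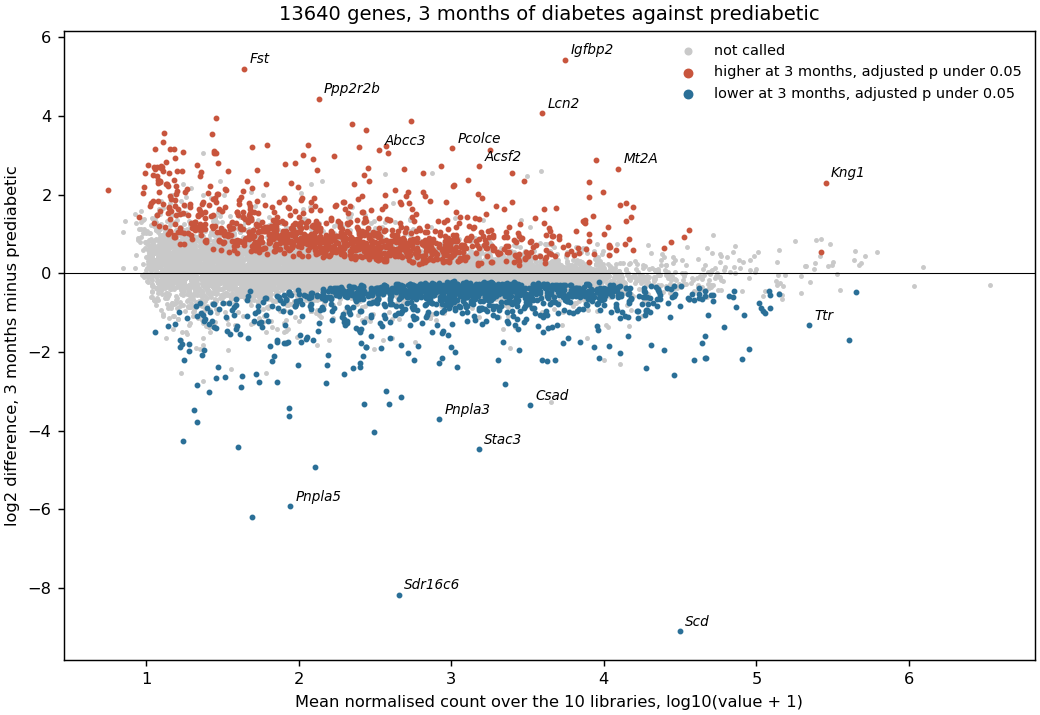
Log2 difference (3 months minus prediabetic, vertical axis) against the mean level over the 10 libraries (log10 of the normalised count plus 1, horizontal axis) for the 13640 genes tested, 1 point a gene, with called genes coloured by direction. Scd lies lowest, at -9.10, and large rises outnumber large falls (439 against 212 called genes beyond a log2 difference of 1).

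Genes of fatty acid and triglyceride synthesis fell at 3 months: 10 of the 24 tested members were called lower and 1 higher, and the median log2 difference of the list was -0.67, against 0.02 over all genes. The leading gene was Scd, stearoyl-CoA desaturase, which makes oleate from stearate. Promoters are shown here for lipid and metallothionein genes. Scd and Pnpla3 fell, while Idi1 and Msmo1, enzymes of the cholesterol pathway, and the metallothioneins Mt1 and Mt2A rose. The sequences are the 250 bases before each start site in the RefSeq GRCr8 annotation, written 5′ to 3′ on the gene's strand. Capitals mark the CCAAT box (read on both strands, so as CCAAT or ATTGG), at which the factor NF-Y assists SREBP proteins, or, in the last 2 sequences, the pattern TGCNCNC (both strands). That pattern takes in the metal response core of the zinc sensor MTF-1 but is looser, so some marked copies may not fit the core.
Scd: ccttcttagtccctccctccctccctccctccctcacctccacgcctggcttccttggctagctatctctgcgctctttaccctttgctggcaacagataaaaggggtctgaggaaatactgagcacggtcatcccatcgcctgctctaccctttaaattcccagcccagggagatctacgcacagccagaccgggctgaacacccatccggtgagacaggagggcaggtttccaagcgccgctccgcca
Pnpla3: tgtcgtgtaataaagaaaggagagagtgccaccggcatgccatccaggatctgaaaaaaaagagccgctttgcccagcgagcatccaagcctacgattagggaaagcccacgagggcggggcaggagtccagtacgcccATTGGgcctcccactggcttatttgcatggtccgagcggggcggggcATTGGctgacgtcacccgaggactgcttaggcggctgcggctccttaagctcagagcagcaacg
Idi1: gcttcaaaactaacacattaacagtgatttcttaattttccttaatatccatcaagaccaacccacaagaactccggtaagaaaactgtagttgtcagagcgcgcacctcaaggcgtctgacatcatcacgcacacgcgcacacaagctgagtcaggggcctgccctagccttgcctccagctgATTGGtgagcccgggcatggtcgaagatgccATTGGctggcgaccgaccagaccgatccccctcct
Msmo1: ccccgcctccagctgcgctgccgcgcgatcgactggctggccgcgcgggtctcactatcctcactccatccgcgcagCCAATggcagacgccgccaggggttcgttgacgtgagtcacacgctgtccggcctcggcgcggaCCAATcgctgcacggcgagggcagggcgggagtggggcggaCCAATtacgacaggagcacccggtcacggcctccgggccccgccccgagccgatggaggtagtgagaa
Mt1: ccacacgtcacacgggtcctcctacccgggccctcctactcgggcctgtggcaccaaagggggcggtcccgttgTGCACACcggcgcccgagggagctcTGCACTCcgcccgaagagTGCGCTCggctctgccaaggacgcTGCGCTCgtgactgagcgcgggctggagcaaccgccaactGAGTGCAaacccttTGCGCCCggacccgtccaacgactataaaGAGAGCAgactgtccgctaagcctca
Mt2A: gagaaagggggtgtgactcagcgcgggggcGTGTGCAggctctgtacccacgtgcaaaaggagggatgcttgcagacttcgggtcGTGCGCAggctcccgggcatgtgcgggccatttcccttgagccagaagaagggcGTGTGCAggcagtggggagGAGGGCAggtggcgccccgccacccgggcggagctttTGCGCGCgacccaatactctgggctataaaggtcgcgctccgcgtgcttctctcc

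These windows lie at chr1:253231732-253231981 (minus strand), chr7:117173278-117173527 (plus), chr17:66547525-66547774 (minus), chr16:29746863-29747112 (plus), chr19:10832976-10833225 (minus) and chr19:10838709-10838958 (minus). Pnpla3 and Idi1 hold 2 CCAAT boxes each, Msmo1 holds 3, and the Scd window holds none. At least 1 CCAAT box is present in 35.9% of the promoters of the 9730 tested genes that matched the table by symbol, and at least 2 in 12.5%. Among the cholesterol genes called higher, 9 of 11 had a promoter in the table, and 6 of those 9 held a CCAAT box; among the fatty acid synthesis genes called lower, 9 of 10 had a promoter, and 6 of those 9 held one. At least 2 boxes were in 4 of the 9 promoters of the genes called higher (44.4%) and in 2 of the 9 of those called lower (22.2%), and the difference was not tested. Mt1 holds 7 copies of TGCNCNC and Mt2A holds 5, while at least 5 copies are present in 0.493% of the promoters of tested genes. The sterol element TCACNCCAC was in none of the 6 windows, and is in 0.976% of the promoters of tested genes. Each match is a run of letters and not a measured binding site.

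Scd stood at 23218, 44397, 61964, 99748 and 84387 normalised counts in prediabetic rats 1 to 5, and at 91.5, 36.9, 61.8, 69.9 and 698 in 3-month rats 1 to 5. The lowest prediabetic value was far above the highest 3-month value, and rat 5 of the 3-month group was well above its group mates. The group means were 62742 ± 30566 and 192 ± 284, a 328-fold difference, and the log2 difference was -9.10 ± 0.90 (SE; adjusted p = 5.02e-06). Thrsp, the Spot 14 protein that follows lipogenic activity, was at 20696, 18641, 26054, 42366 and 38792 in prediabetic rats and at 4411, 1526, 2674, 9046 and 24120 at 3 months. It fell by 2.41 ± 0.54 on the log2 scale (adjusted p = 0.00612), although 3-month rat 5 lay within the prediabetic range. Its call was lost without prediabetic libraries 4 and 5 together (adjusted p = 0.0564).

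Srebf1 itself was at 11582, 8273, 12888, 15362 and 15914 in prediabetic rats and at 4232, 4566, 2924, 6452 and 8296 at 3 months. The groups met at a single pair, 3-month rat 5 and prediabetic rat 2, and the log2 difference was -1.33 ± 0.30 (adjusted p = 0.00654). Pnpla3, the lipid droplet protein adiponutrin and a known SREBP-1c target, was at 154, 75.9, 467, 3934 and 3420.2 in prediabetic rats and at 56.2, 21.1, 94.1, 83.8 and 18.7 at 3 months, a log2 difference of -3.70 ± 0.88 (adjusted p = 0.00866). Prediabetic rats 4 and 5 were the high ones. Without those 2 libraries together the adjusted p was 0.0852 for Pnpla3 and 0.0623 for Srebf1, and 3 members of the list in place of 10 were called lower.

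Further members that fell were Elovl5, a fatty acid elongase (-1.31), Mid1ip1, which activates acetyl-CoA carboxylase (-1.16), Acly, ATP citrate lyase (-1.01), Slc25a1, the mitochondrial citrate carrier (-0.78), Dgat2, which completes triglycerides (-0.52), and Tkt, transketolase (-0.51). The 2 central synthases did not pass: Fasn, fatty acid synthase, differed by -0.92 (adjusted p = 0.0694) and Acaca, acetyl-CoA carboxylase, by -0.62 (adjusted p = 0.181). In both genes prediabetic rats 3, 4 and 5 were higher than prediabetic rats 1 and 2. The summed signal of the list had a low of 146070, a median of 204310 and a high of 320450 in prediabetic rats. When each of the 10 libraries was left out in turn, the calls of Acly, Dgat2 and Tkt were lost in 7, 7 and 3 omissions, with adjusted p up to 0.119 for Acly without prediabetic library 4, and 0.104 and 0.0607 for Dgat2 and Tkt without 3-month library 2. With prediabetic 4 and 5 both left out the adjusted p was 0.383 for Acly, 0.17 for Tkt, 0.117 for Elovl5 and 0.0817 for Dgat2, and with 3-month 1 and prediabetic 2 both left out it was 0.0652 for Mid1ip1.

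**Figure D2:**
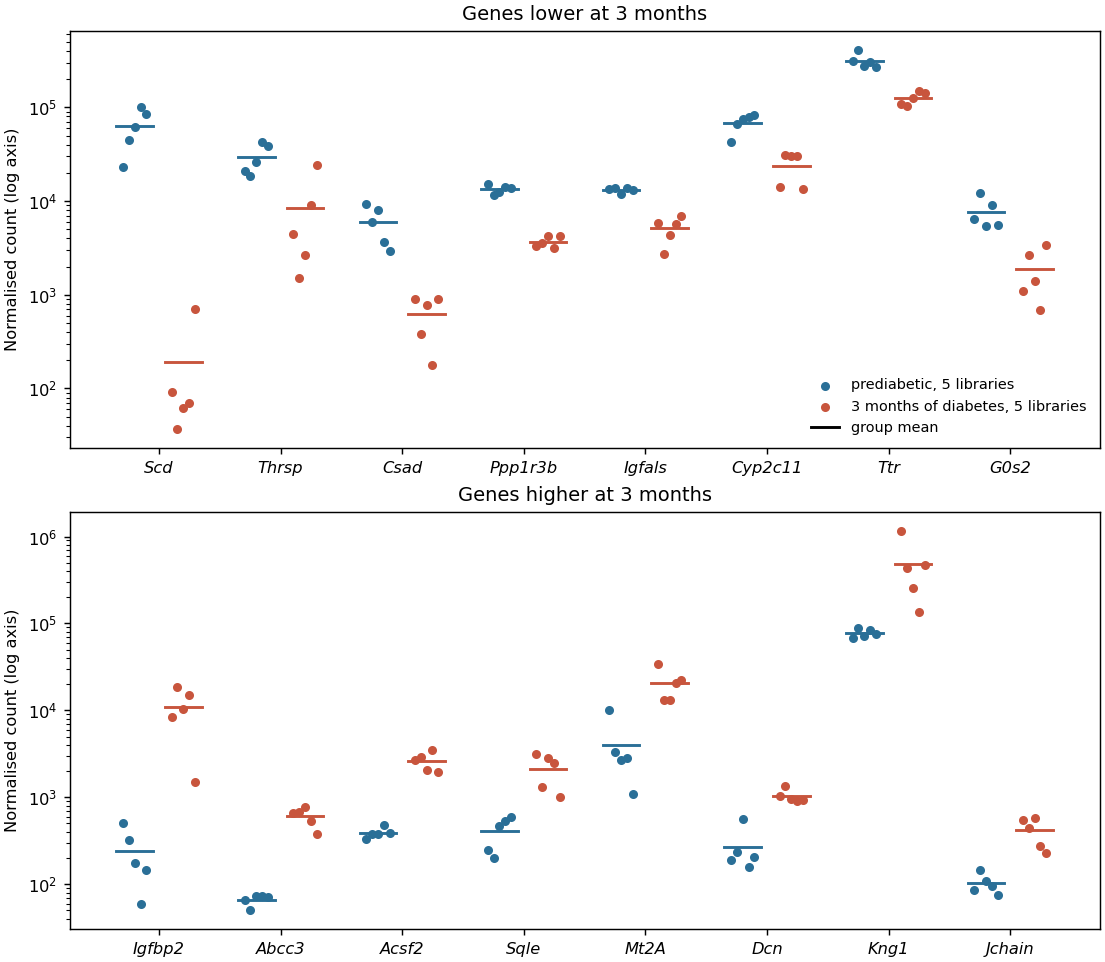
Normalised count (log axis) in each of the 10 libraries for 8 genes that fell (Scd, Thrsp, Csad, Ppp1r3b, Igfals, Cyp2c11, Ttr, G0s2) and 8 that rose (Igfbp2, Abcc3, Acsf2, Sqle, Mt2A, Dcn, Kng1, Jchain) at 3 months; each point is a library and each short line a group mean. Among these 16 genes Thrsp is the exception with overlapping groups, since 3-month rat 5 (24120) lies among the prediabetic rats.

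Glycolysis and fructose metabolism moved in the same direction, with 13 of 29 members called lower, 1 higher and a list median of -0.46. Ldha, lactate dehydrogenase A, was at 63049, 95004, 74035, 99826 and 109780 in prediabetic rats and at 34641, 32095, 39147, 23434 and 40357 at 3 months, with no overlap (-1.38 ± 0.24, adjusted p = 0.00141). Pklr, liver pyruvate kinase, fell by 1.40 on the log2 scale (adjusted p = 0.0137), with 3-month rat 5 at 6834 inside the prediabetic range of 5111 to 7343. The fructose pathway fell at its transporter Slc2a5 (-1.89), at ketohexokinase Khk (-0.79) and at triokinase Tkfc (-0.98). The member called higher was Hk2, the hexokinase of muscle and fat, from 24.1 ± 5.79 to 67.8 ± 29.4 (1.39, adjusted p = 0.00914). Without 3-month library 1 Slc2a5 (adjusted p = 0.0822) and Tkfc (0.0571) were not called, and the call of Slc2a5 was lost in 5 of the 10 omissions. The count of lower members was 4 without prediabetic libraries 4 and 5 together, 6 without 3-month library 1 and prediabetic library 2 together and 8 with only these 2 groups in the fit. In the first of these Pklr (adjusted p = 0.0865), Slc2a5 (0.131) and Tkfc (0.0873) were not called, and in the second Slc2a5 (0.114), Tkfc (0.0996) and Hk2 (0.0527) were not.

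In glycogen metabolism 3 of 14 members fell and none rose. Ppp1r3b, the regulatory subunit that brings protein phosphatase 1 to glycogen in liver, was at 15059, 11631, 12525, 14055 and 13841 in prediabetic rats and at 3296, 3532, 4279, 3176 and 4214 at 3 months. The groups were far apart and narrow (-1.86 ± 0.21, adjusted p = 3.36e-05). Its relative Ppp1r3c fell by 1.75 (adjusted p = 0.00685) and the phosphoglucomutase Pgm1 by 0.56, while glycogen synthase Gys2 (0.30) and phosphorylase Pygl (-0.17) did not pass. Without 3-month library 5 the count of lower members was 5. Ppp1r3c was not called without prediabetic libraries 4 and 5 together (adjusted p = 0.0501).

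Gluconeogenesis did not move as a unit. Of 21 members 7 fell and 1 rose, with a median of -0.38. Pck1, the cytosolic PEP carboxykinase that glucagon induces, was at 90132, 115220, 39021, 120260 and 114260 in prediabetic rats and at 43299, 116510, 147940, 127660 and 84498 at 3 months. The groups covered each other and the log2 difference was 0.11 ± 0.39 (adjusted p = 0.88). G6pc, the catalytic subunit of glucose-6-phosphatase, ranged from 775 to 45968 at 3 months and from 5382 to 25871 in prediabetic rats (-1.33, adjusted p = 0.241). The members that fell were the cytosolic glycerol-3-phosphate dehydrogenase Gpd1 (-1.12, adjusted p = 0.000907), Got1 (-1.65), the glucose-6-phosphate carrier Slc37a4 (-0.79), pyruvate carboxylase Pc (-0.76), Fbp1 (-0.47), Mdh2 (-0.46) and the malate carrier Slc25a11 (-0.40). Pck2, the mitochondrial isoform, was called higher at 0.64. Pck2 lost its call in 7 of the 10 omissions (adjusted p up to 0.123, without 3-month library 1), Got1 in 6 (0.11, without prediabetic library 4), Fbp1 in 4 (0.0708, without 3-month library 2) and Slc37a4 in 1 (0.0508, without prediabetic library 2). The count of lower members was 3 without prediabetic 4 and 5 together, and 4 without 3-month 1 and prediabetic 2 together, after quantile normalisation or with only these 2 groups in the fit. The first omission took the calls of Got1 (adjusted p = 0.31), Pck2 (0.209), Fbp1 (0.155), Slc25a11 (0.117) and Slc37a4 (0.0616), and quantile normalisation that of Pc (0.0823).

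Among 43 genes of amino acid catabolism and the urea cycle 11 fell and none rose (median -0.33). They included Got1, the cytosolic aspartate aminotransferase, Cps1, the entry enzyme of the urea cycle (-0.88), Sdsl (-0.84), the ornithine carrier Slc25a15 (-0.76) and Cbs, cystathionine beta-synthase (-0.56). Sds, serine dehydratase, had a large difference of -3.26 that did not pass. This count was fragile: it was 5 without prediabetic library 4, prediabetic library 5 or 3-month library 1, 6 without 3-month library 5 and 7 without 3-month library 3. Cps1 lost its call in 8 of the 10 omissions and Slc25a15 in 7 (adjusted p up to 0.138 and 0.13, both without 3-month library 1), and Got1 in 6 and Cbs in 5 (up to 0.11 and 0.09995, both without prediabetic library 4). Furthest from 11 were a count of 1 without prediabetic 4 and 5 together, 3 without 3-month 1 and prediabetic 2 together, 4 after quantile normalisation (with 2 higher) and 5 with only these 2 groups in the fit. In the first of these the adjusted p was 0.207 for Cps1, 0.31 for Got1, 0.315 for Slc25a15, 0.186 for Cbs and 0.0811 for Sdsl.

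A gene of taurine synthesis had a large fall. Csad, which decarboxylates cysteine sulphinate on the way to taurine, was at 9285, 5934, 8036, 3683 and 2928 in prediabetic rats and at 911, 378, 776, 178 and 891 at 3 months. Every 3-month value lay below every prediabetic one (-3.35 ± 0.44, adjusted p = 0.000151). Glul, the glutamine synthetase of the hepatocytes around the central vein, went the other way, from 8459, 6084, 12614, 5692 and 8598 to 26244, 16641, 25690, 20818 and 18742 (1.42). The glutamate transporter Slc1a2, found in the same ring of cells, rose by 2.51.

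Fatty acid oxidation also fell. Of 38 members 22 were called lower and none higher, with a median of -0.53 and sizes mostly under 1 on the log2 scale. Hadh, the short-chain hydroxyacyl-CoA dehydrogenase, went from 22031, 23365, 20068, 21885 and 22150 to 7819, 12124, 13697, 10324 and 13457 (-0.96 ± 0.17, adjusted p = 0.00133). The lower members span the pathway, from activation of the fatty acid by Acsl1 (-1.06) through the mitochondrial steps Eci1 (-0.97), Acads (-0.55) and Acadm (-0.53) and the peroxisomal Ehhadh (-0.84) to the ketone body enzyme Bdh1 (-0.92) and the omega hydroxylase Cyp4a2 (adjusted p = 0.0269).

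Cpt1a, which lets fatty acids into the mitochondrion, differed by -0.53 and did not pass (adjusted p = 0.0942), and neither did Ppara, the receptor that controls the pathway (-0.13, adjusted p = 0.836). Without prediabetic library 2 the count of lower members was 13, without 3-month library 1 it was 14, after quantile normalisation it was 10, without 3-month 1 and prediabetic 2 together it was 8, and without prediabetic 4 and 5 together it was 5 (list median -0.43). The call of Acadm was lost in 7 omissions (adjusted p up to 0.12, without 3-month library 1), that of Bdh1 in 6 (0.0691, without 3-month library 2) and that of Cyp4a2 in 3 (0.0684, without 3-month library 4). Omitting prediabetic 4 and 5 also ended the calls of Acadm (0.107), Bdh1 (0.111), Cyp4a2 (0.0808), Ehhadh (0.0835) and Eci1 (0.0641).

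Nuclear-encoded respiratory chain subunits shifted by less: 9 of 32 fell, none rose, and the median was -0.29. Ndufs7, of complex I, differed by -0.63 (adjusted p = 0.00374) and Cox8a, of complex IV, by -0.50 (adjusted p = 0.00702), and prediabetic library 2 held the highest value of both. The 13 mitochondrially encoded transcripts had differences between 0.10 (Mt-nd1) and 0.55 (Mt-nd5 and Mt-co3) and none was called. The count of lower nuclear subunits was 4 without prediabetic library 2 or 3-month library 1. It was 3 without both of these and 4 without prediabetic 4 and 5 together.

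Lipid droplet and lipoprotein genes were lower where they were called, with 1 exception. G0s2, which inhibits the triglyceride lipase ATGL, was at 6434, 12084, 5379.8, 9069 and 5546 in prediabetic rats and at 1109, 2662, 1413, 692 and 3436 at 3 months, with no overlap (-2.21 ± 0.48, adjusted p = 0.00513). In its list 8 of 21 members fell, among them the fatty acid binding proteins Fabp2 (-1.21) and Fabp1 (-0.88), and Hilpda, another inhibitor of ATGL, was called higher (0.86). ATGL itself (Pnpla2, 0.03) and the droplet coat Plin2 (-0.64, adjusted p = 0.219) did not pass. The count of lower members was 4 without prediabetic library 4, 3 without prediabetic library 5 and 5 without 3-month library 2, 3 or 4. Fabp1 and Fabp2 each lost the call in 5 omissions (adjusted p up to 0.0706 and 0.089, without 3-month library 2) and Hilpda in 4 (0.0786, without 3-month library 1). Omission of prediabetic 4 and 5 together left 3 lower members, without Fabp1 (0.111), Fabp2 (0.164) or the call of Hilpda (0.0843), and 5 were lower with only these 2 groups in the fit or without 3-month 1 and prediabetic 2 together.

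Of 25 lipoprotein genes 8 fell and none rose (median -0.35). Apoa4, an apolipoprotein that follows hepatic triglyceride load, was at 55262, 88484, 72873, 58156 and 58248 in prediabetic rats and at 10399, 16702, 27449, 17298 and 32405 at 3 months (-1.76 ± 0.35, adjusted p = 0.00278). The hepatic lipase Lipc fell by 1.10 (adjusted p = 0.000555), the lipoprotein lipase activator Apoc2 by 1.06 and the lipase inhibitor Apoc3 by 0.75. Apob differed by 0.18, Mttp by -0.09 and Apoa1 by 0.01, and these 3 did not pass, while Apoa2 was called lower (-0.58, not called without prediabetic library 2 or 3-month library 1, adjusted p up to 0.069). The count was 5 without prediabetic library 2, without that library and 3-month library 1 together, and without prediabetic 4 and 5 together.

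Cholesterol synthesis rose while fatty acid synthesis fell: 11 of 27 members were called higher and none lower, with a median of 0.57. Sqle, squalene epoxidase, was at 247, 203, 469.6, 534 and 599 in prediabetic rats and at 3152, 1300.2, 2808, 2463 and 997 at 3 months. The groups did not overlap (2.37 ± 0.37, adjusted p = 0.000534). Idi1, isopentenyl diphosphate isomerase, went from 334, 387, 678, 819 and 759.9 to 3486, 1670.5, 3397, 1816 and 1669.6 (2.02 ± 0.36, adjusted p = 0.00137). Its promoter with 2 CCAAT boxes and that of Msmo1, a sterol methyl oxidase that rose by 1.24, are printed above. The other members that rose run along the pathway: the cytosolic thiolase Acat2 (1.61), Hmgcs1 (0.99), the squalene synthase Fdft1 (0.88), Cyp51 (1.33), Tm7sf2 (0.84), Hsd17b7 (0.74) and Dhcr7 (1.03). Of these, Hmgcs1, Tm7sf2 and Hsd17b7 were not called without 3-month library 3 (adjusted p = 0.0685, 0.0513 and 0.0739), nor Acat2 without 3-month library 1 (0.0649), and Hsd17b7 lost its call in 5 omissions and Hmgcs1 and Acat2 in 4 each. Leaving out 3-month 1 and prediabetic 2 together reduced the count to 5, with adjusted p of 0.0534 for Msmo1, 0.0784 for Cyp51, 0.129 for Acat2, 0.12 for Hsd17b7, 0.098 for Hmgcs1 and 0.0604 for Tm7sf2, and Hmgcs1 was not called without prediabetic 4 and 5 together (0.075).

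Srebf2, the regulator of this pathway, was at 1424, 1201, 1666, 1413 and 1298 in prediabetic rats and at 2692, 1865, 2622, 2396 and 1879 at 3 months, which was a rise of 0.70 ± 0.14 with no overlap (adjusted p = 0.00334). Without 3-month library 3 the count of higher members was 7.

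**Figure D3:**
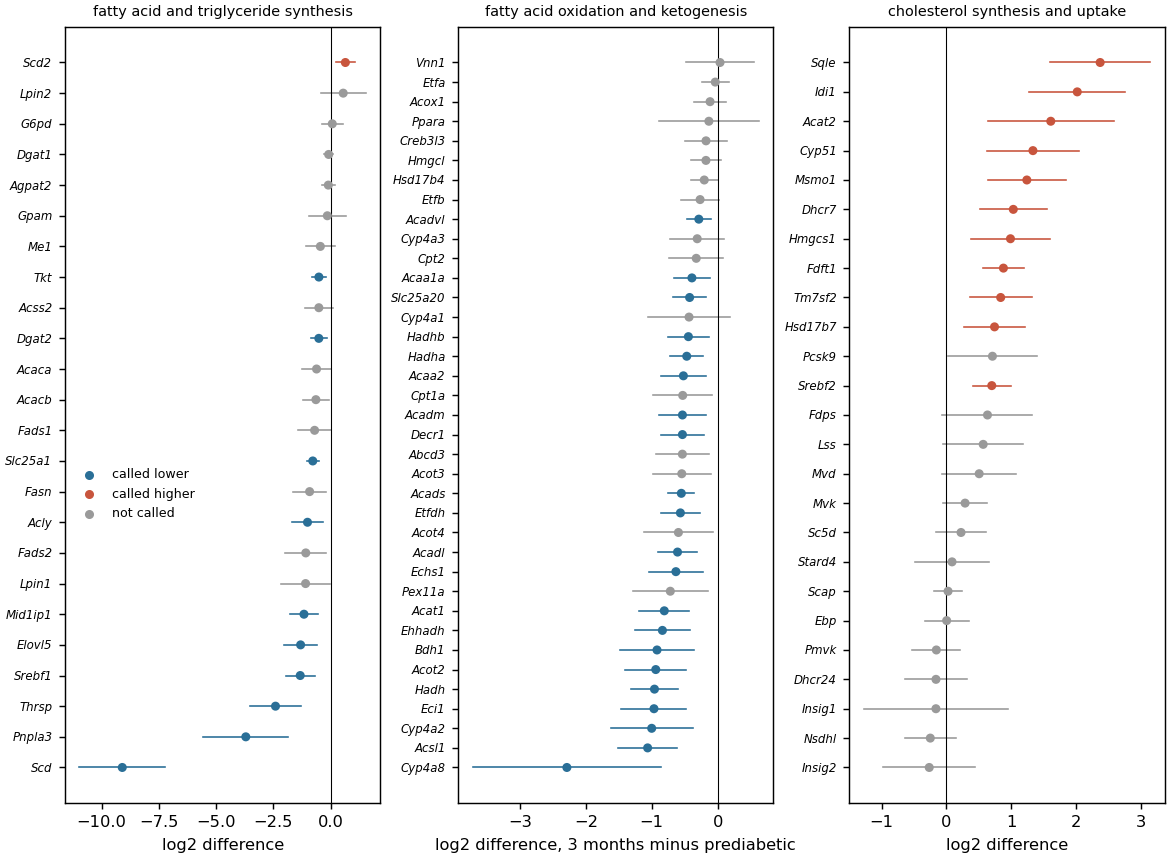
Log2 difference (3 months minus prediabetic, horizontal axis) with its 95% confidence interval for 24 members of the fatty acid synthesis list, 37 of fatty acid oxidation and 25 of cholesterol synthesis, with called genes coloured by direction. Fatty acid synthesis and oxidation lie mostly left of 0 (medians -0.67 and -0.53) and cholesterol synthesis mostly right of it (median 0.57).

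Bile acid genes changed at single steps and not as a list, with 4 of 23 members higher and 3 lower. Abcc3, the basolateral exporter of bile acid and glucuronide conjugates, was at 65.3, 50.6, 72.4, 73.8 and 71.1 in prediabetic rats and at 653, 671, 781, 541 and 374 at 3 months, a wide gap between narrow groups (3.13 ± 0.36, adjusted p = 3.36e-05). The canalicular bile salt pump Abcb11 rose by 0.80 (adjusted p = 0.000225). Cyp8b1, the sterol hydroxylase that sets the share of cholic acid, was at 46071, 49940, 37331, 28192 and 30230 in prediabetic rats and at 3366, 16622, 15528, 6361 and 15867 at 3 months, with no overlap (-1.94 ± 0.44, adjusted p = 0.00677). Cyp7a1, the rate-limiting enzyme of bile acid synthesis, differed by 0.20 with overlapping groups (adjusted p = 0.771). Without prediabetic library 2 the count of lower members was 5.

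Of 28 insulin pathway genes 2 were called higher and 1 lower, both below the shares over all genes (7.76% and 8.72%). Irs2, the insulin receptor substrate that insulin represses in liver, was at 649.6, 568, 776, 547 and 649 in prediabetic rats and at 1162, 1567, 2343, 855 and 1677 at 3 months (1.18 ± 0.28, adjusted p = 0.00894). Trib3, a pseudokinase reported to bind AKT, was at 239, 469, 354, 282 and 176 in prediabetic rats and at 599, 872, 1196, 1093 and 547 at 3 months (1.51 ± 0.33, adjusted p = 0.00538). Neither gene overlapped between the groups. Pik3r1, the regulatory subunit of PI3 kinase, fell by 1.32 (adjusted p = 0.00493), and the receptor Insr differed by 0.44 without passing (adjusted p = 0.113). Without 3-month library 4 the count of higher members was 4 in place of 2. Without prediabetic 4 and 5 together it was 1, and Irs2 was not called (adjusted p = 0.0549).

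The growth hormone and IGF axis turned over more broadly, with 6 of 20 members higher and 4 lower. Igfbp2, an IGF-binding protein, was at 510.1, 319.8, 175, 59 and 146 in prediabetic rats and at 8489.9, 18706, 10335, 15214 and 1502 at 3 months. Even 3-month rat 5, the lowest of its group, lay above every prediabetic rat, and the means differed 44.8-fold (5.43 ± 0.66, adjusted p = 6.57e-05). Igfbp1, the binding protein that insulin represses acutely, was at 3802, 2444, 992, 1829 and 3429 in prediabetic rats and at 11558, 8168, 32201, 8771 and 6728 at 3 months (2.32 ± 0.61, adjusted p = 0.0148). Rat 3 was the high one, and the groups did not overlap. The adjusted p of Igfbp1 was 0.0532 without prediabetic libraries 4 and 5 together.

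Igfals, the acid-labile subunit that holds IGF-1 in the circulation, was at 13551, 13735, 12037, 13847 and 13112 in prediabetic rats and at 5784, 2723, 4362, 5730.5 and 7013 at 3 months (-1.44 ± 0.22, adjusted p = 0.000378). Igf1 fell by 0.66 (adjusted p = 0.00386) and the growth hormone receptor Ghr by 0.98 (adjusted p = 0.00315), both without overlap between groups. Socs3, a feedback inhibitor of cytokine and growth hormone signalling, was called higher (1.80, adjusted p = 0.0454), with 2384 in 3-month rat 1 and 156 in 3-month rat 3. The count of higher members was 3 without prediabetic library 4 or 3-month library 1. Socs3 lost its call in 7 of the 10 omissions, with an adjusted p of 0.131 without 3-month library 1. The higher count was 2 without prediabetic 4 and 5 together (adjusted p of Socs3 0.204) and 3 with only these 2 groups in the fit, with no filter on low values, with the Arntl and Dbp covariate or without 3-month 1 and prediabetic 2 together.

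Secreted factors of the liver gave 4 rises and 1 fall among 19 genes. Fst, follistatin, which binds activins and is induced by glucagon, was nearly absent in prediabetic rats, at 0.851, 0, 3.63, 0 and 2.05, and reached 188, 107, 37.8, 43.8 and 47.9 at 3 months. Its difference of 5.20 ± 0.51 depends on the added 1, since the prediabetic values were near 0. Hgf, hepatocyte growth factor, was at 682, 596, 524, 480 and 787 in prediabetic rats and at 2074, 1575, 1612, 1361 and 1617 at 3 months (1.43 ± 0.13, adjusted p = 2.54e-06). The angiotensin precursor Agt fell by 0.84 (adjusted p = 0.0006). Fgf21 differed by -1.20 with overlapping groups and did not pass (adjusted p = 0.282).

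Ttr, transthyretin, the carrier of thyroxine and retinol-binding protein, was at 315020, 407730, 277300, 304150 and 270160 in prediabetic rats and at 109240, 104030, 126560, 148550 and 141870 at 3 months. The fall of 1.32 ± 0.18 (adjusted p = 0.000181) separated the groups fully. Acsf2, a mitochondrial acyl-CoA synthetase, had the smallest adjusted p of the genes that rose: it was at 328, 379, 381, 486 and 391 in prediabetic rats and at 2709, 2931, 2085, 3506 and 1948 at 3 months (2.72 ± 0.22, adjusted p = 9.15e-07). That rank is among genes with an established symbol and a mean of at least 50.

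Cytochrome P450 genes of families 1 to 3 split, with 5 of 33 higher and 8 lower. Cyp2c11, the main growth-hormone-driven P450 of male rat liver, was at 42634, 65758, 74611, 78053 and 81992 in prediabetic rats and at 13977, 31078, 30388, 29913 and 13590 at 3 months, with no overlap (-1.59 ± 0.35, adjusted p = 0.00591). Cyp2b2 fell from 709 ± 446 to 66.0 ± 58.3 (-3.33 ± 0.57, adjusted p = 0.00109), although reads of Cyp2b and Cyp2c copies may be shared between near-identical genes. The family 1 members, all targets of the aryl hydrocarbon receptor, were called higher: Cyp1a2 (1.34), Cyp1a1 (2.17) and Cyp1b1 (2.79). Cyp2e1 ranged from 83449 to 286290 at 3 months around a narrow prediabetic range of 97268 to 110840 and was not called (0.60, adjusted p = 0.272). The count of higher members was 3 without prediabetic library 4 or 5 and 2 without 3-month library 1 or 2, and the count of lower members was 5 without prediabetic library 1, 3-month library 1 or 3-month library 2. Cyp1a1 kept its call in 2 of the 10 omissions only, and its adjusted p reached 0.124 without 3-month library 2. Omission of prediabetic 4 and 5 left 1 higher member, with adjusted p of 0.159 for Cyp1a1 and 0.0775 for Cyp1b1, and omission of 3-month 1 and prediabetic 2 left 2 higher and 4 lower.

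Of 18 sex-predominant genes tested 5 fell and none rose. Besides Cyp2c11 these were A1bg (-3.03), Cyp4a2 and both rows of Mup4, a male urinary protein with near-identical copies (-2.58 and -2.02), so the lower members were not of 1 sex pattern only. A1bg is female-predominant in rat liver, and Cyp2c12, another female-predominant gene, differed by -0.71 without passing (adjusted p = 0.447). The list count was 3 without 3-month library 2, and the adjusted p of the larger Mup4 row was then 0.0547. A1bg was not called without 3-month library 2 or 3 (adjusted p up to 0.053), and Cyp4a2 lost its call in 3 omissions (up to 0.0684, without 3-month library 4). The count was 2 without prediabetic 4 and 5 together, when A1bg (adjusted p = 0.0667), Cyp4a2 (0.0808) and the larger Mup4 row (0.0553) were not called, and 3 without 3-month 1 and prediabetic 2 together.

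Conjugation and antioxidant genes gave 7 rises and 4 falls among 41 members, and the metallothioneins were among the rises. Mt2A was at 10063, 3316, 2692, 2835 and 1093 in prediabetic rats and at 34374, 13176, 13087, 20902 and 22496 at 3 months (2.66 ± 0.44, adjusted p = 0.000865). Mt1 was at 10787, 3722, 3219, 2714 and 1398 and then at 24805, 8572, 10827, 15839 and 17059 (2.06 ± 0.41, adjusted p = 0.00278). Prediabetic rat 1 held the highest prediabetic value of both genes and overlapped the 3-month group for Mt1 only. These are the 2 genes whose promoters carry the repeated TGCNCNC pattern shown above, and the part of that pattern in their rise was not tested.

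Gstt3, a theta-class glutathione transferase, rose from 1102, 3114, 2101, 1934 and 1721 to 11971, 17036, 21702, 23056 and 4932 (2.87 ± 0.41, adjusted p = 0.000249). The quinone reductase Nqo1 (1.63), haem oxygenase Hmox1 (0.92) and thioredoxin reductase Txnrd1 (0.45, adjusted p = 0.00438), all targets of NRF2, were called higher, while Gclc (-0.19), Gclm (0.40) and Gsr (0.15), further NRF2 targets, were not. The mu-class transferases that fell were Gstm7 (-0.67), Gstm1 (-0.61) and Gstm4 (-0.60). Without prediabetic library 1, prediabetic library 3 or 3-month library 1 the count of higher members was 4. In the omission of 3-month library 1 the adjusted p was 0.142 for Hmox1, 0.0891 for Nqo1 and 0.0649 for Gstm7, and Hmox1 lost its call in 8 omissions, Nqo1 in 6 and Gstm7 in that 1. After quantile normalisation 2 members in place of 4 were lower, without Gstm1 (0.0856). Without prediabetic 4 and 5 together the adjusted p was 0.102 for Hmox1 and 0.0887 for Gstm7.

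Along the liver lobule, 3 of 15 pericentral genes rose (Slc1a2, Glul and Cyp1a2) and 1 fell, Gulo, of vitamin C synthesis (-0.92). Among 22 periportal genes 4 fell (Cps1, Cyp2f4, Hsd17b13 and Gpt2) and Cdh1, E-cadherin, rose, from 2848 ± 476 to 6004 ± 706 (1.08, adjusted p = 4.28e-05). The lower count was 2 without prediabetic library 3, prediabetic library 4 or 3-month library 1, and 1 without prediabetic library 5. Without 3-month library 1 the adjusted p was 0.138 for Cps1, 0.0881 for Gpt2 and 0.0727 for Hsd17b13. The lower count was 1 under either paired omission, with adjusted p of 0.207, 0.199 and 0.111 for these 3 genes without prediabetic 4 and 5 and of 0.0666 for Cyp2f4 without 3-month 1 and prediabetic 2.

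Inflammatory genes rose in part. Kng1, the kininogen gene, whose reads may include the near-identical acute-phase T-kininogens, was at 67905, 89504, 71050, 83884 and 76492 in prediabetic rats and at 1151200, 438230, 253220, 134070 and 469100 at 3 months. Every 3-month rat was above the prediabetic range, from rat 4 just above it to rat 1 far above it (2.30 ± 0.56, adjusted p = 0.00944). Of 27 acute phase genes 5 rose and 1, Ttr, fell. Lbp, which presents bacterial lipopolysaccharide, went from 5669 ± 1671 to 22347 ± 17531 (1.78, adjusted p = 0.0137), with 53565 in 3-month rat 1; this call was lost without prediabetic libraries 4 and 5 together (adjusted p = 0.1). Lcn2, lipocalin 2, was at 74, 218, 159, 55.3 and 57.4 in prediabetic rats and at 35265, 1019.8, 782, 1186 and 346 at 3 months (4.07 ± 1.20, adjusted p = 0.0261).

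That call of Lcn2 was lost without prediabetic library 4, prediabetic library 5 or 3-month library 1 (adjusted p up to 0.0779), and without prediabetic libraries 4 and 5 together (0.128). Abundant acute phase proteins did not pass, among them haptoglobin Hp (0.44, adjusted p = 0.403), Orm1 (0.98, adjusted p = 0.274) and fibrinogen Fga (0.88, adjusted p = 0.0715), and 3-month rat 1 had the highest value of each. The acute phase count of higher members was 3 without prediabetic library 4, prediabetic library 5 or 3-month library 1, and 8 without 3-month library 4. It was 2 without prediabetic 4 and 5 together, 1 without 3-month 1 and prediabetic 2 together (adjusted p of Lbp 0.0514), 8 after quantile normalisation and 10 with library weights.

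Among 42 complement and coagulation genes 5 rose, including C5 (0.91, adjusted p = 0.0113), F5 (0.66) and C1qa (0.73), and 4 fell, including C8g (-0.90, adjusted p = 0.000509) and F11 (-0.66, adjusted p = 0.00504). Both counts were not far above the shares over all genes (7.76% and 8.72%), with 21.4% of the list called against 16.5% of all genes tested. The higher count was 3 without 3-month library 1 and 8 without 3-month library 4, and the lower count was 2 without prediabetic library 2 or 3-month library 2. After quantile normalisation 8 were higher and 2 lower, 2 were lower without prediabetic 4 and 5 together or with only these 2 groups in the fit, and 3 were higher and 2 lower without 3-month 1 and prediabetic 2 together (adjusted p of C5 0.0753). In the interferon and antigen presentation list 4 of 39 members fell, close to the share over all genes (8.72%), and 1 rose, below that share (7.76%). The lower genes were Isg15 (-0.79), Dhx58 (-0.61), B2m (-0.58) and Ifi27 (-0.44), and the higher one was Gbp5 (1.82, adjusted p = 0.00266). Without 3-month 1 and prediabetic 2 together 2 were lower, and Isg15 was not called (0.057). F5, C1qa and Ifi27 lost the call in 4, 2 and 6 omissions, with adjusted p up to 0.0853 without 3-month library 2, 0.0644 without 3-month library 1 and 0.125 without prediabetic library 4. C1qa was not called without prediabetic 4 and 5 together (0.0923).

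Of 26 chemokines and inflammatory mediators 9 rose and 1 fell, with a median of 0.75. The innate receptor Tlr2 was at 62.2, 60.7, 61.9, 55.4 and 38.0 in prediabetic rats and at 319, 199, 225, 106 and 131 at 3 months, with no overlap (1.71 ± 0.37, adjusted p = 0.00498). The neutrophil attractant Cxcl1 was called higher (2.22, adjusted p = 0.0474), with 5725 in 3-month rat 1 and 154 in 3-month rat 4. Cxcl12, a chemokine that retains leukocytes, fell from 21562 ± 3673 to 7300.2 ± 2021 (-1.59, adjusted p = 0.00181). The higher count was 5 without prediabetic library 4 or 3-month library 2, and 3 without 3-month library 1. Cxcl1 lost its call in 7 omissions, with an adjusted p of 0.136 without 3-month library 1 and of 0.21 without prediabetic 4 and 5 together. Under that paired omission 2 members were higher, without 3-month 1 and prediabetic 2 together 5, and with library weights 16.

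Markers of other liver cells moved with these genes. In bulk RNA, fewer cells of a type and less RNA per cell cannot be told apart. Of 16 Kupffer cell and macrophage markers 15 rose and none fell, with a median of 0.91, and their summed signal went from a low of 21113, a median of 23818 and a high of 29148 in prediabetic rats to 31501, 43205 and 65842 at 3 months. None of these markers was at 0 throughout either group. Cd163, the haemoglobin scavenger receptor, was at 1183, 887, 956, 1329 and 1232 in prediabetic rats and at 3257, 2355, 2379, 1599 and 2326 at 3 months (1.07 ± 0.23, adjusted p = 0.0042). Cd5l, a macrophage-secreted protein, went from 1597, 2412, 1588, 1997 and 1691 to 8210.2, 5355, 5698, 2513 and 4232 (1.40 ± 0.32, adjusted p = 0.00686). Neither gene overlapped, and 3-month rat 4 was the lowest of its group for both. Clec4f, a marker of resident Kupffer cells, was the member that did not pass (0.53, adjusted p = 0.0562). The count was 4 without prediabetic libraries 4 and 5 together, 5 without 3-month library 1, 8 without that library and prediabetic library 2 together, and 9 without prediabetic library 5 or 3-month library 2.

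Of 8 neutrophil markers 7 rose, with a median of 2.59. S100a9, a subunit of calprotectin, was at 17.8, 40.1, 38.0, 26.2 and 26.5 in prediabetic rats and at 1508, 304, 123, 96.4 and 284 at 3 months (3.22 ± 0.67, adjusted p = 0.0042). The groups did not overlap, and 3-month rat 1 was the high one, as it was for Lbp and Lcn2. Elane, the neutrophil elastase gene, was at 0 in every prediabetic library. The summed signal of the list was low in both groups, between 183 and 353 in prediabetic rats and between 438 and 3795 at 3 months. The count of 7 was 1 without prediabetic libraries 4 and 5 together and 4 without 3-month library 1 and prediabetic library 2 together. Among lymphocyte markers 4 of 18 rose, and the plasma cell gene Jchain, which joins immunoglobulin chains, was at 86.6, 147, 109, 94.8 and 74.4 and then at 544, 441, 586, 274 and 231 (1.96 ± 0.31, adjusted p = 0.000641).

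The heavy chain genes Ighg1 (3.79, adjusted p = 0.00202) and Igh-6 (3.14, adjusted p = 0.00143) rose with Jchain, and reads of immunoglobulin genes may be shared between copies. The T cell genes Cd3d, Cd3e and Cd3g (0.15, 0.14 and 0.40) and the B cell gene Cd79b (-0.07) did not pass. The summed lymphocyte markers went from 1374 to 1702 in prediabetic rats to 2022 to 3394 at 3 months. The lymphocyte count was 1 without 3-month library 1 and under either paired omission, and 2 without prediabetic library 5 or 3-month library 2. The part of these cell markers in the inflammatory changes was not tested.

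Stellate cell markers rose in 8 of 12 cases, with a median of 0.71. Dcn, decorin, was at 193, 236, 558, 158 and 207 in prediabetic rats and at 1045, 1339, 949, 905 and 935 at 3 months, with no overlap (2.08 ± 0.36, adjusted p = 0.00109). Reln (0.97), Rgs5 (1.11), Pdgfrb (0.80), the retinol acyltransferase Lrat (0.49) and Hgf belonged to the same list. The summed signal ranged from 10043 to 14128 in prediabetic rats and from 16062 to 20667 at 3 months. Without 3-month library 1 the count was 5. Lrat lost its call in 5 omissions (adjusted p up to 0.0591, without prediabetic library 4) and Pdgfrb in 1 (0.0523, without 3-month library 1) and without prediabetic 4 and 5 together (0.116). Lrat was also not called without 3-month 1 and prediabetic 2 together (0.0939).

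Type I and III collagen and contractile genes were not called. Col1a1 was at 152, 186, 325, 92.7 and 81.2 in prediabetic rats and at 73.4, 182, 103, 364 and 224 at 3 months, with groups that covered each other (0.14 ± 0.50, adjusted p = 0.874). Col1a2 (0.26), Col3a1 (0.53, adjusted p = 0.0877), the smooth muscle actin gene Acta2 (0.44, adjusted p = 0.564) and Tgfb1 (0.43) did not pass either, and 2 of 16 myofibroblast markers rose, Tgfbi (0.46) and the protease inhibitor Timp1 (1.27). The Timp1 call was lost without prediabetic library 4 (adjusted p = 0.051). That of Tgfbi was lost without prediabetic library 4 or 3-month library 4 (adjusted p up to 0.0558). Without prediabetic 4 and 5 together neither was called (0.114 for Tgfbi and 0.104 for Timp1).

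Among 29 matrix genes listed as miR-29 targets, however, 11 rose and none fell, with a median of 0.54. They were chiefly basement membrane and minor collagens: Col4a1 and Col4a2 (0.72 each), Col5a1 (0.62), Col5a2 (0.81), Col16a1 (1.07), Nid1 (0.60) and Lama2 (0.85), with the processing enzymes Adamts2 (0.95) and Pxdn (0.85). Col4a1 went from 1091 ± 118 to 1840 ± 465 (adjusted p = 0.0126). Of 25 listed targets outside the matrix 3 fell, Pik3r1, Igf1 and Narf, and none rose. The matrix count was 4 without prediabetic library 4, 5 without 3-month library 1 and 6 without prediabetic library 2 or 3-month library 4. In the omission of prediabetic library 4 the adjusted p was 0.0519 for Col16a1, 0.0711 for Col5a1, 0.0766 for Adamts2, 0.0946 for Pxdn and 0.0621 for Narf. Col4a2 was not called without 3-month library 1 (0.066), nor Nid1 and Lama2 without 3-month library 2 (0.0765 and 0.0631). The matrix count was 5 without prediabetic 4 and 5 together, 4 without 3-month 1 and prediabetic 2 together and 7 with only these 2 groups in the fit. Col4a1 was lost in both paired omissions (0.0797 and 0.0549), and Narf in the first (0.187).

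Fewer markers of further cell types were called. Of 15 sinusoidal endothelial markers 3 were called higher (median 0.30), a count that was 0 without 3-month library 1, 1 without prediabetic 4 and 5 together, 6 after quantile normalisation, 5 without prediabetic library 1 and 6 without 3-month library 5. Krt19, a keratin of bile ducts, was called higher as 1 of 12 duct markers, whose median was 0.84, and 3 were called without 3-month library 5. Its own call was lost in 6 omissions (adjusted p up to 0.118, without prediabetic library 4), and without prediabetic 4 and 5 together it was 0.251. Of 7 red blood cell rows 1 rose, the anion exchanger Slc4a1 (1.67, adjusted p = 0.00376), while the globins Hbb (-0.07) and Hba-a2 (-0.16 and -0.18) did not pass. Of 4 adipocyte markers tested 1 fell, Cidec (-0.45, a call lost in 5 omissions with an adjusted p up to 0.0909, without 3-month library 2), and the defining genes Lep and Plin1 were at 0 in all libraries of both groups. Of the pancreatic acinar markers Cela1 was the only one high enough to be tested, and it was not called (-0.46). Of 12 hepatocyte markers 4 fell (Ttr, Cps1, the transcription factor Cebpa and the asialoglycoprotein receptor subunit Asgr2), while Alb differed by -0.29 (adjusted p = 0.555) and Hnf4a by 0.02. After quantile normalisation 1 hepatocyte marker was lower and 1 higher, with Cebpa and Asgr2 not called (0.0607 and 0.0521), and Cps1 was not called without 3-month library 1 (0.138). The summed hepatocyte signal was between 5232700 and 7116300 in prediabetic rats and between 4691500 and 7517300 at 3 months, so the ranges overlapped. The part of these cell markers in the lower hepatocyte genes was not tested.

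**Figure D4:**
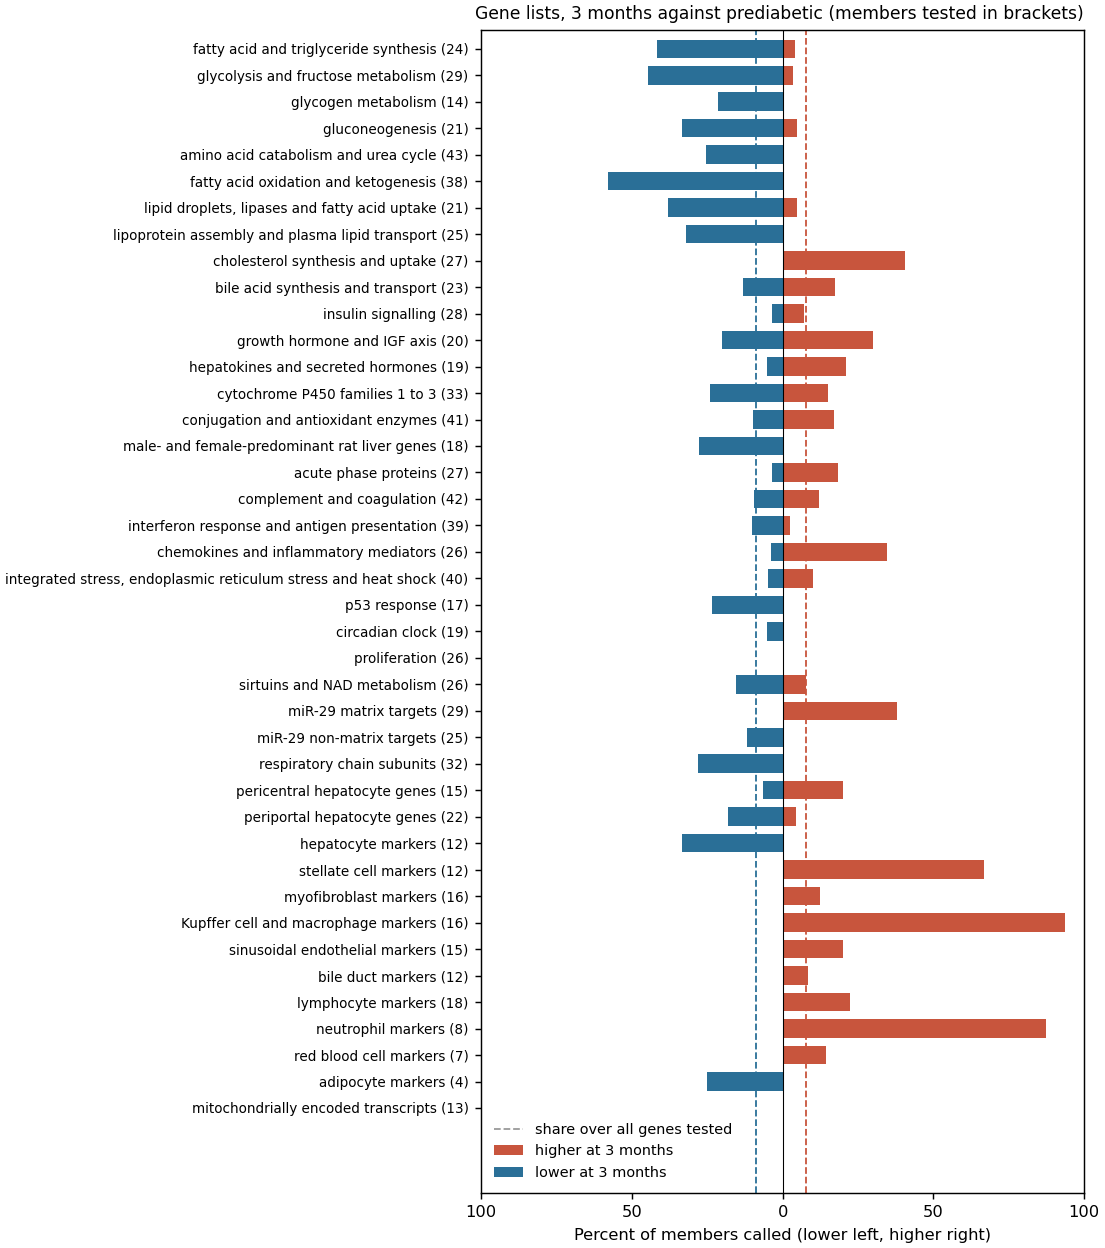
Percentage of tested members called higher (to the right) and lower (to the left) at 3 months for each gene list, with dashed lines at the share over all genes tested (7.76% higher and 8.72% lower). Kupffer cell and neutrophil markers have the longest bars to the right (15 of 16 and 7 of 8 members, or 4 and 1 without prediabetic libraries 4 and 5) and fatty acid oxidation the longest to the left (22 of 38, or 5 without those libraries). The neutrophil bar covers the 8 of 12 listed markers that passed the filter on low values, which markers high only in the diabetic groups could pass.

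Stress genes did not move together. Of 40 genes of the integrated stress, endoplasmic reticulum and heat shock responses 4 rose and 2 fell, and without prediabetic libraries 4 and 5 together 2 and 1 did. The 15% of the list that was called was close to the 16.5% over all genes tested. The risers were Atf4, the regulator of the integrated stress response (0.66), its targets Trib3 and Psat1 (1.87), and Hspb1, a small heat shock protein (1.55), and the fallers were Sesn2 (-0.96, adjusted p = 0.00497) and the mitochondrial Shmt2 (-0.42). The chaperone Hspa5 differed by -0.17 and Ddit3, or CHOP, by -0.32, and neither passed. Psat1 lost its call in 7 omissions (adjusted p up to 0.104, without 3-month library 1), and the paired omission took the calls of Atf4 (0.0736), Shmt2 (0.0793) and Psat1 (0.198).

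Of 17 genes of the p53 response 4 fell and none rose. Cdkn1a, the cell cycle inhibitor p21, was at 6352, 6726, 4503, 5438 and 6845 in prediabetic rats and at 4585, 1394, 830.2, 299 and 2146 at 3 months, a fall of 2.21 on the log2 scale in which 3-month rat 1 overlapped the prediabetic group. Without prediabetic libraries 4 and 5 together 2 members of the list were lower, and the adjusted p was 0.0594 for Cdkn1a and 0.0993 for Ccng1. Plk2 fell by 0.83 (adjusted p = 0.00636), with Ccng1 (-0.68) and Perp (-0.63), while Mdm2 (-0.01) and Bax (-0.01) did not pass. Among 26 proliferation genes none was called; Pcna differed by -0.17 and Mki67 by 0.88 (adjusted p = 0.0853).

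Among 26 genes of NAD metabolism and the sirtuins 2 rose and 4 fell, and both enzymes at the branch point of the tryptophan route were among them. The rises were close to the share over all genes (7.76%), and 23.1% of the list was called against 16.5% of all genes tested. Acmsd, which diverts the intermediate away from NAD, was at 144, 134, 149.9, 144 and 188 in prediabetic rats and at 560.3, 1167, 535, 857 and 406 at 3 months (2.11 ± 0.35, adjusted p = 0.000865). Qprt, which carries it on to NAD, was at 3994, 4112, 3181, 4042 and 4043 and then at 1869.9, 1915, 2247, 1876 and 2747 (-0.87 ± 0.12, adjusted p = 0.000222). Neither gene overlapped between the groups. The sirtuins Sirt2 to Sirt7 differed by -0.26 to 0.38 and none was called, and Sirt1 was not analysed here. The count of lower members was 2 without 3-month library 1 or 3-month library 3, under either paired omission and with only these 2 groups in the fit.

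Circadian genes spread widely within the 3-month group. Dbp, a clock output gene, was at 1425, 1359, 3598, 2755 and 2443 in prediabetic rats and at 119, 220.3, 1202, 7297 and 1474 at 3 months. Arntl, or Bmal1, which peaks at the opposite time of day, was at 736, 725, 357, 373 and 412 and then at 1494, 1259.9, 543, 67.5 and 569. Rats 1 and 2 of each group were low in Dbp and high in Arntl relative to their group mates, and 3-month rat 4 was the reverse extreme. Neither gene was called (adjusted p = 0.313 and 0.953), and 1 of 19 clock genes was, Hlf (-0.72), a call lost in 8 omissions (adjusted p up to 0.114, without 3-month library 1), without prediabetic 4 and 5 together (0.236) and with the median-of-ratios scaling. With the log2 difference between Arntl and Dbp as a covariate 2136 genes were called.

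The 3-month rats were then set against the 2-week rats, which tests directly where the 3-month difference exceeds that at 2 weeks. At 3 months 320 genes differed from 2 weeks (2.35% of those tested), 157 higher (1.15%) and 163 lower (1.2%). Of the 320 genes, 298 were also called against prediabetic rats, as were 16.5% of all genes tested. Both comparisons use the same 3-month libraries and the same estimate of spread, so this overlap is partly built in. The genes called higher at 3 months had a median log2 difference from prediabetic rats of 0.90 at 3 months, 0.26 at 2 weeks and 0.85 at 6 months, and the genes called lower had medians of -0.54, -0.20 and -0.43. All 3 of these differences share the prediabetic libraries.

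Scd was 2.10 below prediabetic at 2 weeks on the log2 scale, a difference that was not tested here. It was a further 7.00 lower at 3 months (adjusted p = 0.00121 for 3 months against 2 weeks). Cyp2c11 (-0.08 at 2 weeks, -1.59 at 3 months), Acsf2 (0.14 and 2.72), Trib3 (-0.08 and 1.51), Cd163 (-0.02 and 1.07), Kng1 (0.04 and 2.30) and Ighg1 (-0.06 and 3.79) were near the prediabetic level at 2 weeks. For each of these 6 genes the 3-month level also differed from the 2-week level, by -1.51 for Cyp2c11, 2.58 for Acsf2 (adjusted p = 1.04e-05), 1.59 for Trib3, 1.09 for Cd163, 2.26 for Kng1 and 3.85 for Ighg1. The same test named Kcnma1 (4.25), Spsb4 (3.27), Stac3, an adaptor protein known from muscle (-4.48), Sdr16c6 (-5.09) and Prr32 (-3.24).

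The Kupffer cell list had a median of 0.01 at 2 weeks, 0.91 at 3 months and 1.02 at 6 months, and its summed signal at 2 weeks ran from 20583 to 25890, close to the prediabetic range. Cholesterol synthesis had medians of 0.12, 0.57 and 0.64, fatty acid synthesis -0.36, -0.67 and -0.93, and fatty acid oxidation -0.37, -0.53 and -0.54. The number of genes called between 3 months and 2 weeks depended on single libraries, being 41 without 2-week library 2, 50 without 2-week library 1, 61 without 3-month library 1, 107 without 3-month library 2, 109 without 3-month library 3, 150 without 2-week library 4 and 557 without 3-month library 5.

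From 3 to 6 months 2 genes changed (0.0147% of those tested; 1058 genes had an unadjusted p under 0.05), both lower at 6 months and both without an established name. AABR07015057.1 was at 61188, 59135, 62978, 66242 and 71532 at 3 months and between 10129 and 13502 in the 6 rats at 6 months (-2.47, adjusted p = 0.0242), and AABR07015081.2 behaved alike (-2.32, adjusted p = 0.0242). These 2 loci also split the 2-week group, where AABR07015057.1 was at 12345, 74172, 9960 and 8506, so that 2-week rats 1, 3 and 4 matched the 6-month level and 2-week rat 2 the level at 3 months. The labels name nothing that these libraries share, and the part of such a split in the comparisons with 2 weeks and 6 months was not tested. The 3-month and prediabetic libraries were on the same side of it, with prediabetic rat 2 between the levels. The count of 2 was 0 without any of the 5 3-month libraries and without 6-month library 1, 2, 3 or 5, and 4 without 6-month library 4 or 6. With the replicate number as a block neither locus was called.

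**Figure D5:**
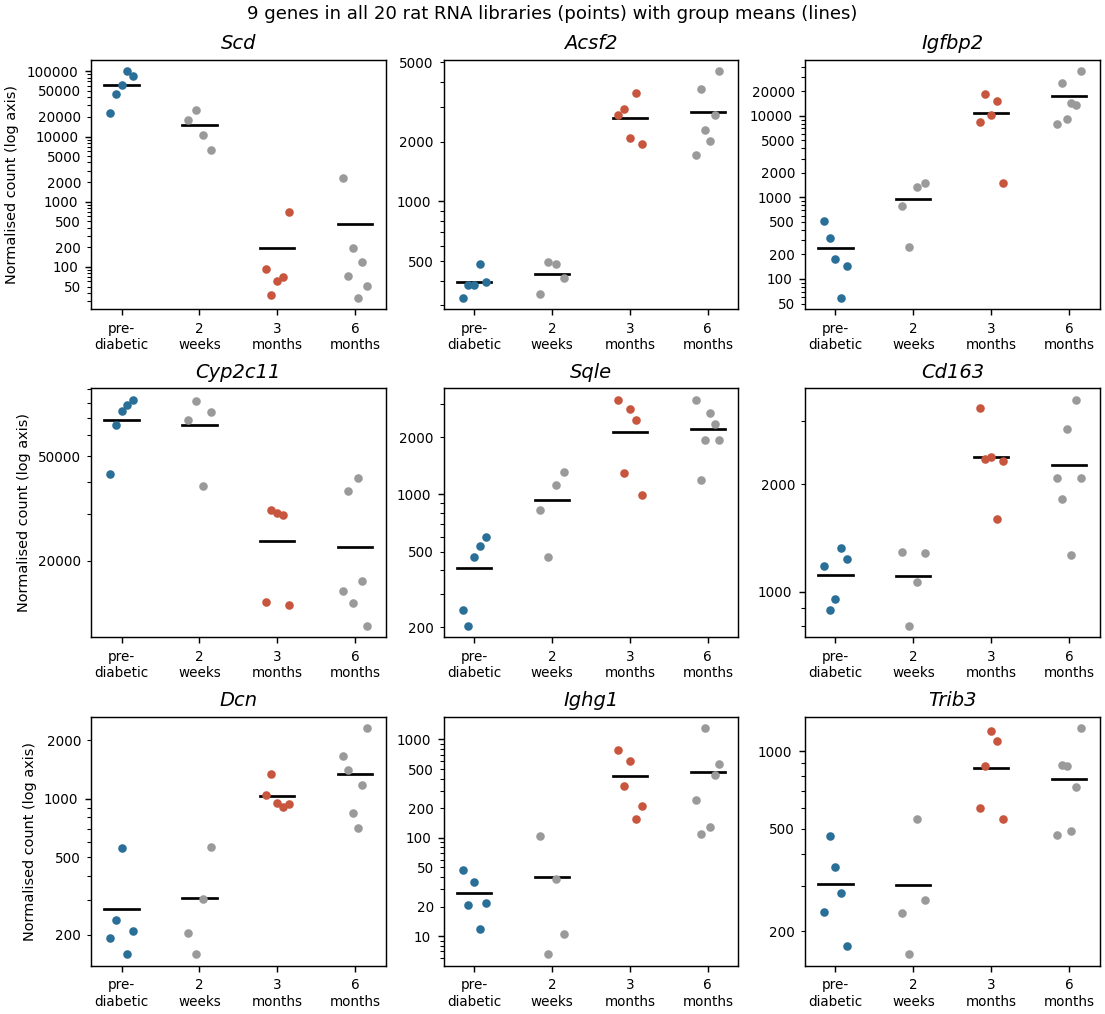
Normalised count (log axis) of Scd, Acsf2, Igfbp2, Cyp2c11, Sqle, Cd163, Dcn, Ighg1 and Trib3 in all 20 rat liver RNA libraries by duration of diabetes (prediabetic, 2 weeks, 3 months, 6 months); points are libraries and lines are group means. The log2 differences of Scd from prediabetic are -2.10 at 2 weeks, -9.10 at 3 months and -8.65 at 6 months. By contrast, Acsf2, Cyp2c11, Cd163 and Trib3 stay near the prediabetic level at 2 weeks.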

How the data were processed

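Poly(A)-selected RNA of rat liver was sequenced (Illumina TruSeq kit, per the labels), and the authors deposited 1 table of normalised counts, a signal scaled between libraries, for 32754 genes in 20 libraries. The submitters' processing notes name STAR, Salmon, DESeq2 and the builds rn6, mm9, mm10 and hg19; no source used here gives their versions, settings or roles. The values are not whole numbers, so no count model was fitted, and reads shared between near-identical genes or antisense pairs could not be separated.

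Values were compared as log2(value + 1), so that differences of low genes are understated. The 13640 genes whose mean over the 20 rat libraries reached 10 were fitted with limma 3.58.1 in R 4.3.3, with a variance trend and all 4 groups in 1 fit. P-values were adjusted by Benjamini and Hochberg over all genes tested, and a gene was called under 0.05. On simulated data the fit of 13640 genes recovered 100 of 100 changes of 4-fold and 84 of 100 of 2-fold, with 7 false calls. The changed genes were drawn from the more highly expressed ones, with independent normal noise and no outlying library. Recovery and false calls for low genes, or with outlying libraries, were therefore not measured.

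Groups follow the labelled duration of diabetes. The members and gene lists were chosen with earlier results of these data known. The rule for named genes took, in each direction, the 12 largest changes and the 6 smallest adjusted p among called genes with a mean of 50 or more, plus at most 3 called members of every list and a fixed set of 6; other genes were named for their role after their values were seen, and a few genes are not reported here. Lists cover metabolism, hormones, inflammation, stress and markers of liver cell types. Library totals of 37624000 to 44740000 are sums of scaled values and do not give the depth. Depth estimated from the size of 1 read in the scaled values was 39592000 to 46540000 reads in the compared libraries. It was lower in 2-week library 2 (32083000) and 2-week library 4 (25799000). The limma p-values measure the spread between rats within groups, pooled over all groups in the fit and not over the compared rats alone. For 3 months against prediabetic rats, 1622 genes were called in place of 2248 with only the compared groups in the fit. Replicate numbers do not pair the rats. Alternatives changed the pseudocount, filter, scaling, fit, library weights, replicate block, threshold and libraries included. Promoters come from RefSeq (GRCr8), for 9730 of the tested genes.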

Additional observations from a re-analysis of the deposited data

Results flagged for a closer look

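Single libraries stood apart from the other 4 of their group in 38 of 344 groups examined (11%): the gap to the nearest library was over 0.71 of the group's range. That cut-off gives about 1 in 20 for independent normal values. The values here were not on a log scale and came mostly from named genes, some of which move together. The rate to be expected by chance is therefore not known. Prediabetic library 2 gave 11 of the 38. It was high in normalised counts for Acads (8782), Apoc2 (83381), Atf4 (7622), C8g (13055), Cox8a (9145), Dhx58 (329.5), Isg15 (323), Krt19 (245), Masp2 (13932) and Ndufs7 (3770.4), and low for Il6st (2493). The other prediabetic libraries were apart for Mt1 (10787) and Mt2A (10063) in rat 1, high, and Dpt in rat 1, low (19334); for Dcn (558) and Slc1a2 (165), high, and Qprt (3181), low, in rat 3; and for Tlr2 in rat 5, low (38.0).

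Among 3-month libraries, rat 1 was high for the inflammatory genes Lbp (53565), Lcn2 (35265), S100a8 (1113) and S100a9 (1508) and for the transglutaminase Tgm1 (1627), and low for the Y-linked Eif2s3y (982). Rat 2 was high for Kcnma1 (588) and Krt23 (356) and low for Igf1 (8453) and Slc25a1 (2799.9). Rat 3 was high for Agt (27684), Cyp2b2 (169.6), Igfbp1 (32201) and Stac3 (529.9), rat 4 for Ccnd1 (5229), Cyp1b1 (135) and Krt19 (639), and rat 5 for F11 (8643), Mup4 (5904.5) and Scd (698).

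For 51 of the genes named, the 3-month level differed from the 2-week level (limma, adjusted p under 0.05), given here as log2 differences of 3 months minus 2 weeks. Lipid, glycogen and other metabolic genes were lower at 3 months, with Scd at -7.00, Csad at -2.44, Ppp1r3b at -1.59, Lipc at -1.03, Gulo at -0.75 and Lhpp at -0.69. Acsf2 (2.58), Acmsd (1.46), Glul (1.10) and the glutamate transporter Slc1a2 (1.95) were higher. Of transport and detoxification genes, Abcc3 (1.86), Abcb11 (0.60), Cyp1a2 (0.82), Gstt3 (2.01) and Mt2A (1.87) were higher and Cyp2c11 (-1.51), Gstm4 (-0.48) and Mup4 (-2.26) lower. Of secreted and hormonal proteins, Igfbp2 (3.37), Fst (3.73), Hgf (0.81) and Kng1 (2.26) were higher and Igfals (-1.15), Ttr (-0.91), C8g (-0.58) and F11 (-0.65) lower.

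Genes of blood, immune and stromal cells were higher at 3 months than at 2 weeks: Cd163 (1.09), Cd5l (1.34), Tlr2 (1.63), Jchain (1.81), Ighg1 (3.85), Igh-6 (2.98), Dcn (1.90), Pcolce (3.13) and Slc4a1 (1.63). The remaining higher genes were Cd63 (1.23), Disp1 (1.46), Kcnma1 (4.25), Krt23 (3.07), Ppp2r2b (2.91), Spsb4 (3.27) and Trib3 (1.59). The remaining lower genes were Gimd1 (-2.87), Mtmr7 (-2.14), Nrep (-3.11), Phf19 (-1.34), Plk2 (-0.78), Prr32 (-3.24), Sdr16c6 (-5.09), Sesn2 (-0.88) and Stac3 (-4.48).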

How the results depend on the processing

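Of 2248 genes called at 3 months against prediabetic rats, the count was 1014 without prediabetic libraries 4 and 5 (441 higher, 573 lower), 1277 without 3-month library 1 and prediabetic library 2 (chosen after seeing the data), 818 at an adjusted p under 0.01 and 651 with an absolute log2 difference of at least 1, where 67.4% were higher against 47.1% in all. Leaving out each library in turn gave 1449 (3-month library 1) to 2393 (3-month library 5). Pseudocount, filter, scaling, variance trend, fit of the compared groups alone, library weights and the clock gene covariate (also chosen after seeing the data) gave 1622 to 3007. For 3 months against 2 weeks (320) the count was 169 with only the compared groups in the fit, 851 with library weights and 80 without 3-month library 1 and prediabetic library 2, and 41 to 557 leaving out each library. For 6 months against 3 months (2) it was 5 with a pseudocount of 10 and 0 to 4 leaving out each library. The cause of these shifts was not tested.

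With the replicate block the counts were 2231 (1996 of them shared with the fit without it), 195 for 3 months against 2 weeks and 1 for 6 months against 3 months, a gene higher at 6 months that is neither of the 2 named loci. The block also moved the called respiratory chain subunits from 9 to 16 and the endothelial markers from 3 to 7. Correlations of the deviations of same-numbered rats were 0.018, -0.083, -0.184, -0.103 and 0.071, so the numbers do not pair the rats.

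Of the genes named by rule, 156 were called. Of these, 99 were tested and called in all 12 settings that keep the call rule and in every omission of 1 library; 98 of the 99 had an adjusted p under 0.01 and 61 an absolute log2 difference of at least 1. In at least 1 omission 24 lost the call, under at least 1 other setting 51 did, and none turned its sign. Over all 285 called members of the lists and genes named by rule, 116 lost the call in at least 1 omission, 137 without prediabetic libraries 4 and 5 together and 118 without 3-month library 1 and prediabetic library 2 together. The difference in library totals, -1755000, ran from -2295000 to -989000 leaving out each library. Depth was not given as counts, so low genes carry no counting interval.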

Other observations

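Several genes outside the lists differed clearly between 3-month and prediabetic rats, and of those given here Bhmt and Mt1m were picked after their values were seen. Bhmt, which remethylates homocysteine with betaine, was at 121020, 132200, 127870, 112520 and 182270 normalised counts in prediabetic rats and at 11621, 64258, 40255, 78448 and 23295 at 3 months, with no overlap (-1.92 ± 0.46, adjusted p = 0.00841). The metallothionein Mt1m rose by 2.73 (adjusted p = 0.000378), beside Mt1 and Mt2A. Cd63, a tetraspanin of lysosomes and exosomes, went from 1142, 1608, 859.5, 1091 and 843 to 4797, 4458, 3617, 3575 and 2899 (1.82 ± 0.18, adjusted p = 5.02e-06). Disp1, which releases hedgehog ligands, went from 148, 148, 170.2, 212 and 164 to 670.1, 443, 640.1, 399 and 686 (1.72 ± 0.17, adjusted p = 5.02e-06).

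Ppp2r2b, a regulatory subunit of protein phosphatase 2A, was at 14.5, 13.5, 6.72, 6.71 and 10.0 in prediabetic rats and at 282, 175, 486, 158 and 183 at 3 months, a rise of 4.44 on the log2 scale. Pcolce, which speeds the processing of procollagen, went from 164 ± 43.5 to 1864 ± 1480.4 (3.19, adjusted p = 0.00234), with 4339.9 in rat 1. Among the falls were Ltc4s, leukotriene C4 synthase, from 236 ± 61.7 to 18.7 ± 23.4 (-4.93, adjusted p = 0.00738), and Mtmr7, a lipid phosphatase, from 835 ± 358 to 106 ± 69.6 (-3.15, adjusted p = 0.000225). Nrep fell from 262 ± 63.8 to 37.9 ± 12.4 (-2.79, adjusted p = 0.000907). Groups did not overlap for any of these 9 genes.

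Sdr16c6, a short-chain dehydrogenase, was at 280, 191, 511, 1715 and 1813 in prediabetic rats and at 0, 1.31, 3.41, 1.06 and 1.10 at 3 months (-8.17). Its 2 high prediabetic rats, 4 and 5, were also the high ones for Pnpla3. In those same rats the SPRY-domain gene Spsb4 was at 1251 and 1128, against 57.4 to 132 in the other 3.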
